A study of Dunaliella tertiolecta UTEX 'LB 999' with 2 samples.

Results

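The genes described here are LHCBM3 and LHCBM4, which encode light-harvesting antenna proteins of photosystem II, and ELI3, whose symbol is that of the early light-inducible genes. They were chosen by name, and they are 3 of the 234 transcript contigs that the authors listed as different between 8 h and 4 h after a light shift. All 3 stood in the list of 100 contigs lower at 8 h, and none in the list of 134 higher ones. Of all listed contigs 42.7% were lower at 8 h by at least 2-fold, the size that every listed difference reached.

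The alga was Dunaliella tertiolecta, a wall-less green flagellate of salt water, strain UTEX LB-999. It was held in a chemostat, a culture kept at steady state by constant inflow, in ATCC-1174 DA medium with 0.5 M NaCl at 25 °C and 40 µmol photons m-2 s-1. At steady state the light was raised to 400 µmol photons m-2 s-1. RNA samples followed at 4 h and 8 h. The 4 h library held 556037 reads and the 8 h library 674129, as recovered from the deposited values. Each time point had 1 library, both were taken under the higher light, and no sample from before the shift is labelled. Without replicates, the comparisons are between single libraries and lack a replicate check, and the labels do not say whether both came from the same culture.

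The LHCBM proteins of green algae bind chlorophylls a and b and carotenoids, and as trimers they form the main outer antenna that passes light energy to photosystem II. Algae moved from dim to bright light are known to make a smaller antenna, and the messenger RNAs of antenna proteins are part of that acclimation. Early light-inducible proteins are relatives of the antenna proteins in the thylakoid membrane. They are known in plants and algae for accumulating under high light, where they are thought to bind free pigments and protect against light damage.

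Names here are those of the best protein hit in another green alga, Chlamydomonas reinhardtii. The LHCBM3 contig was 1179 bases long and its best hit was Cre32.g781300.t1.1, described as photosystem II light harvesting complex gene 2.1, with an E value of 3e-126. The LHCBM4 contig was 1095 bases long and its best hit was Cre06.g283950.t1.1, described as photosystem II light harvesting complex gene 2.2, with an E value of 7e-124. The ELI3 contig was 823 bases long and its best hit was Cre02.g130500.t1.1, a chlorophyll a-b binding family protein, with an E value of 1e-44. Positions are those within a contig, from base 1 to its end, and no genome position was used here.

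The contig names put LHCBM3 and LHCBM4 at one assembled locus, number 1375, as transcripts 4 and 5 of 9, with assembly confidences of 0.579 and 0.658. The other 7 transcripts of that locus were in neither list. Only 3 loci had 2 listed contigs each, and the others were histone loci. Whether the pair are separate genes of Dunaliella, copies or alternative assemblies of one gene was not tested. Their reads were fractional in the authors' totals, so part of them was shared between contigs. ELI3, transcript 5 of 5 at locus 10568, had whole reads.

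LHCBM3 showed the larger difference of the antenna pair. Its level in the authors' deposited table was 109.6 RPKM at 4 h and 16.04 RPKM at 8 h, where RPKM stands for reads scaled to contig length and library depth. These levels correspond to 71.8 reads at 4 h and 12.7 reads at 8 h. LHCBM3 was thus 6.83-fold lower at 8 h, with a 95% exact interval of 3.69 to 13.2 that covers counting error only. The counting intervals of the levels, 85.9 to 138.3 RPKM at 4 h and 8.71 to 28.0 RPKM at 8 h, did not overlap. By size of fold it was the sixth of the 100 lower contigs, whose median was 2.67-fold. It was also 1 of 11 contigs at least 4-fold lower, which made up 4.7% of all listed contigs.

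LHCBM4 was the more abundant contig and differed less. The authors' deposited table gave it 256.8 RPKM at 4 h and 123.5 RPKM at 8 h. The underlying reads numbered 156.4 at 4 h and 91.2 at 8 h. It was 2.08-fold lower at 8 h, with an interval of 1.59 to 2.72. Contigs under 2-fold were not in the lists, and the lower list began at 2.02-fold, so LHCBM4 stood just inside that limit. Only 5 of the 100 lower contigs had a higher level than LHCBM4 at 4 h, and the same number at 8 h.

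ELI3 was scarce. In the authors' deposited table it had 17.5 RPKM at 4 h and 5.41 RPKM at 8 h, on 8 reads and 3 reads. The ratio was 3.23-fold lower at 8 h, with an interval of 0.776 to 18.9 that includes equal levels. At this depth a difference in ELI3 was therefore not detectable from its reads. The authors' deposited table gave ELI3 a p-value of 0.0171 and a false discovery rate of 0.128. For LHCBM3 and LHCBM4 the rates in the authors' deposited table were 3.98e-11 and 1.22e-09. These p-values come from a Poisson model of 1 library per time point, so they carry no spread between cultures. They did not follow the reads alone either. CGLD14, another lower contig with 8 reads at 4 h and 3 reads at 8 h, is 1038 bases long. Its p-value from the same model was 0.0337 in the authors' deposited table. The p-values are therefore no measure of counting error in the reads.

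**Figure D1:**
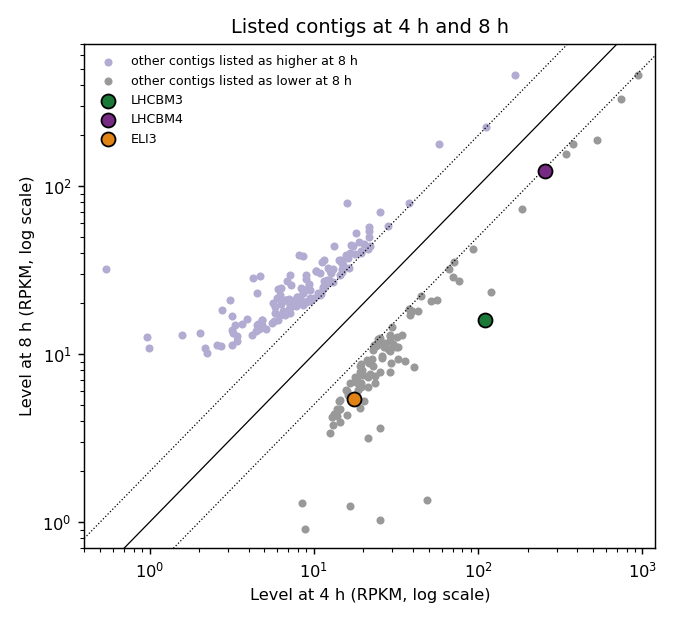
Level at 4 h (x axis) and at 8 h (y axis) of the 234 listed contigs, in RPKM on log scales, with equal levels as a solid line and 2-fold differences as dotted lines. LHCBM4 lies near the dotted line at 256.8 and 123.5 RPKM, LHCBM3 well below it at 109.6 and 16.04 RPKM, and ELI3 among the scarce contigs.

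The pair's levels were also summed, since the contigs may share reads with each other. The summed reads were still fractional, so part of them was shared with contigs outside the pair. The summed level was 366.4 RPKM at 4 h and 139.6 RPKM at 8 h, a 2.63-fold lower value at 8 h. In summed RPM, reads scaled to library depth without regard to length, the values were 410.4 at 4 h (interval 358.5 to 466.9) and 154.2 at 8 h (126.1 to 186.9). The corresponding fold was 2.66, with an interval of 2.10 to 3.38. In bulk RNA, fewer cells with a transcript and less of it per cell cannot be told apart.

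The pair did not differ by the same fold. LHCBM3 held 31.5% of the pair's reads at 4 h (exact binomial interval 25.6% to 38.0%) and 12.3% at 8 h (6.83% to 20.4%). The fold of LHCBM3 was 3.29 times that of LHCBM4, with an exact conditional interval of 1.65 to 6.70. Per kilobase, the level of LHCBM4 was 2.34 times that of LHCBM3 at 4 h and 7.70 times at 8 h. These intervals take the authors' split of shared reads as given, and error in that split was not tested.

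The authors' totals cover more libraries than the labelled pair. The raw total of LHCBM4 in the authors' deposited table was 622.6 reads, and 375.1 of them (60.2%, interval 56.2% to 64.1%) came from neither time point. For LHCBM3 the authors' deposited table gave a total of 215.9 reads, with 131.3 (60.8%, 53.8% to 67.2%) from neither. For ELI3 it was 4.00 of 15 reads (26.7%, 7.79% to 55.1%). The normalized totals in the authors' deposited table were 2231 RPKM for LHCBM4, 705.1 RPKM for LHCBM3 and 44.8 RPKM for ELI3. Of these, 82.95%, 82.2% and 48.9% lay outside both time points.

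The reads outside both time points could be assigned to exactly 2 further libraries, here called A and B. Where a contig had 1 such read, its normalized value took only 2 sizes per kilobase, corresponding to library depths of 178827 and 241501 reads. With these depths, the raw and normalized totals gave whole reads in every library for all 161 contigs with whole totals, within 0.01 reads. The largest of the 4 recovered values also matched the deposited maximum for all 234 contigs, within 0.02%. The depths of 4 h and 8 h had themselves been taken from these maxima, so most of these matches were built in. The match bears on the further libraries mainly in the 3 contigs whose maximum lay in A, and no contig had its maximum in B. A library without any listed read would not be seen this way. The labels do not describe A and B, so their time, light and culture are unknown, their values are given as such, and no comparison with the time points was tested.

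LHCBM4 had 326.4 reads in library A, a level of 1667 RPKM (counting interval 1489 to 1856). In library B it had 48.7 reads, or 184.0 RPKM (137.1 to 245.0). It was the most abundant of the 234 listed contigs in both. LHCBM3 came second in both, with 96.1 reads in A, or 455.7 RPKM (368.8 to 556.0), and 35.3 reads in B, or 123.8 RPKM (85.6 to 171.0). Set in order, LHCBM4 was highest in A, then at 4 h, in B and at 8 h, and the counting intervals of 4 h and B overlapped, as did those of B and 8 h. LHCBM3 was highest in A, then in B, at 4 h and at 8 h, and only the intervals of B and 4 h overlapped. The 8 h library had the lowest recovered level of both contigs among all 4 libraries, for LHCBM4 within counting error of B. That 8 h lay below 4 h was fixed by the listing. All listed contigs together held 0.173% of the reads of B, against 0.656% in A, 0.707% at 4 h and 0.731% at 8 h. The levels were not adjusted for this.

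ELI3 had 1 read in library A and 3 reads in B, which gave 6.80 RPKM and 15.1 RPKM. A single ELI3 read was worth 6.79 RPKM in A and 5.03 RPKM in B, against 1.80 RPKM at 8 h and 2.19 RPKM at 4 h. All 4 of its counting intervals overlapped, so no order can be read from them.

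**Figure D2:**
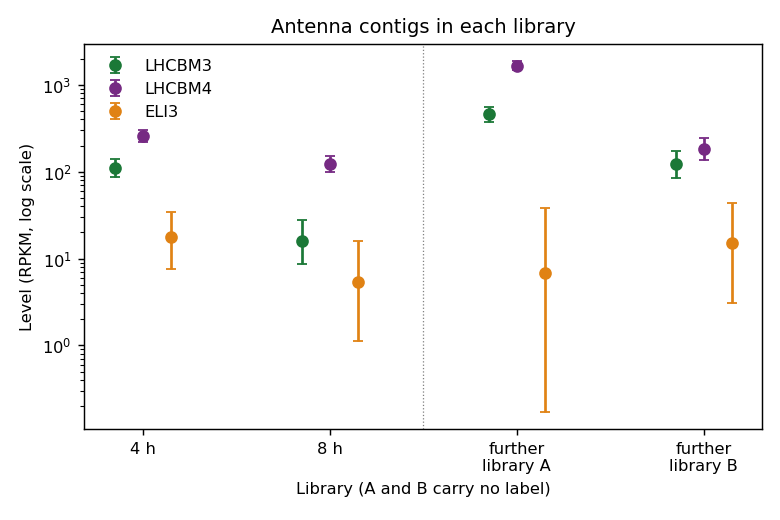
Level of each contig in RPKM (log scale) in the libraries of 4 h and 8 h and in the unlabelled libraries A and B, with bars for 95% exact Poisson intervals of the reads, which cover counting error only. LHCBM4 runs from 123.5 RPKM at 8 h to 1667 RPKM in A, LHCBM3 from 16.04 to 455.7 RPKM, and the intervals of ELI3 all overlap.

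The split of the pair's reads also varied over the 4 libraries. LHCBM3 took 22.7% of them in A (18.8% to 27.1%) and 42.0% in B (31.0% to 52.9%), beside 31.5% at 4 h and 12.3% at 8 h. The level of LHCBM4 was 3.66 times that of LHCBM3 in A and 1.49 times in B. LHCBM4 was the more abundant contig in every library, and by the widest ratio at 8 h. The summed level of the pair was 2122 RPKM in A and 307.9 RPKM in B.

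**Figure D3:**
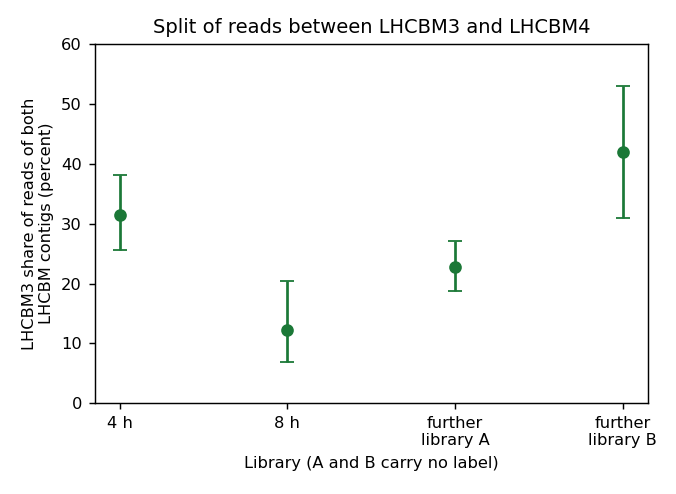
Share of the reads of both LHCBM contigs that belonged to LHCBM3 (percent), in each library, with 95% exact binomial intervals. The share was 12.3% at 8 h and 42.0% in library B.

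The antenna pair carried much of what the lower list held in the further libraries. In library A, 422.5 of the 815.3 reads of the lower list belonged to the pair (51.8%), and in B 83.9 of 268.9 (31.2%). At 4 h and at 8 h the pair made up 8.06% and 7.85% of the lower list's reads. Over the other 98 lower contigs, 13.1% of raw reads came from outside both time points, against 60.4% for the pair. In this share LHCBM3 ranked the second and LHCBM4 the third among all 234 listed contigs, whose median was 10.9%. The highest was CHLREDRAFT_416138, a hypothetical protein at 71.2%, named after its values were seen. These were the only 3 contigs with more reads in A than in any other library, in reads not scaled for the smaller depth of A. By level, high values in A were more widespread, with 13 of the 100 lower and 18 of the 134 higher contigs above both time points there, the antenna pair among them.

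The contigs whose raw reads were split most like those of the antenna pair, over 8 h, 4 h and the further libraries together, were sought among 139 other annotated contigs with at least 20 raw reads. Likeness was the Euclidean distance between the shares in percentage points, over 3 shares that add up to the whole. LHCBM3 and LHCBM4 were each other's nearest contig, at 11.97 points. The next annotated contig for both was CHLREDRAFT_183048, at 30.8 points from LHCBM3 and 30.0 from LHCBM4. It was described as a putative dicarboxylate diiron protein (Crd1), the family of the cyclase in chlorophyll synthesis. It had 91.0 reads at 4 h, 50.0 at 8 h, 67.0 in A and 13.0 in B. Its levels were 92.8 RPKM at 4 h and 42.1 RPKM at 8 h in the authors' deposited table, and 212.5 RPKM in A and 30.5 RPKM in B. Contigs without a symbol and described as hypothetical or of unknown function were left out of this search. One of these was CHLREDRAFT_416138, with 70.8 raw reads, whose distance was not calculated. Its share outside both time points, 71.2%, was closer to the pair's 60.8% and 60.2% than the 36.2% of CHLREDRAFT_183048.

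Other annotated contigs lay farther off. THB4, by its symbol a truncated haemoglobin, was 35.2 points from LHCBM3 and 40.7 from LHCBM4, and FRE1, a ferric reductase, 42.7 and 43.7. CHLREDRAFT_116557, a P-loop hydrolase, was 42.2 points from LHCBM3. CHLREDRAFT_182821, a phosphoenolpyruvate carboxylase and the only one of these from the higher list, was 37.9 points from LHCBM4.

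**Figure D4:**
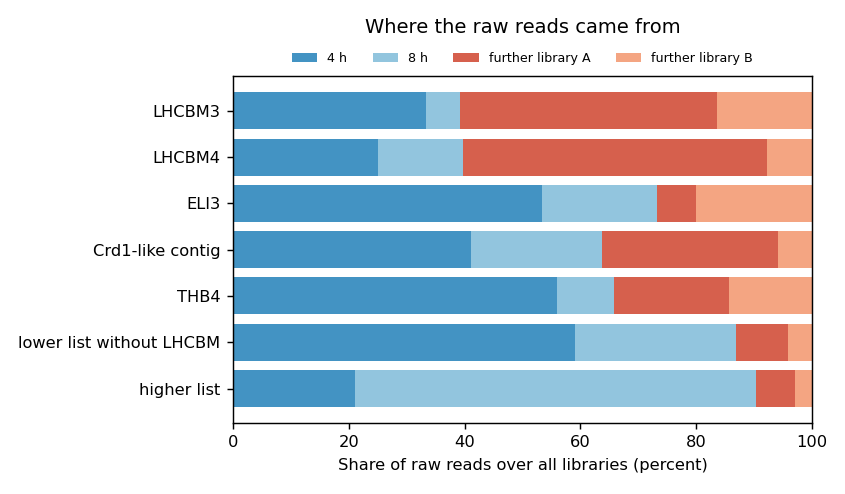
Share of raw reads (percent) from each library, not scaled for library depth. Bars show the 3 members, CHLREDRAFT_183048 (Crd1-like) and THB4. Further bars show the other 98 contigs of the lower list together and the 134 of the higher list together. The other near contigs are not shown, among them CHLREDRAFT_182821 of the higher list, nearer to LHCBM4 than THB4. Library A supplied 52.4% of the reads of LHCBM4 and 44.5% of those of LHCBM3, against 8.92% for the other lower contigs.

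Beside the antenna, the contigs matched by keywords to other parts of photosynthesis were listed in both directions, although several of the matches were by symbol alone. Of 9 contigs matched to photosystem cores and their assembly 4 were lower at 8 h (44.4%, against 42.7% of all listed contigs) and their median fold in either direction was 2.63, against 2.73. Most of these carried CGL symbols, given to genes conserved in the green lineage. Apart from that of CGLD14, the descriptions of these CGL contigs named no photosystem subunit. Some descriptions named other functions, with CGL49 described as an ADP-ribosylation factor and CGL51 as a nucleotide/sugar transporter. CGL40, CGL63 and CGL73 had ratios of 2.18-fold, 2.42-fold and 2.63-fold lower and CGL3 2.75-fold higher, and the intervals of all 4 included equal levels. CGL51 was 2.57-fold higher (1.18 to 6.18) and CGL49 4.15-fold (1.48 to 13.3). The 2 PsbP-family contigs, related to a protein of the water-splitting side of photosystem II, stood in opposite lists. CGLD14 had 8 reads at 4 h and 3 at 8 h, and a further 7 reads in A and 1 in B. PSBP9 had 3 reads at 4 h, 10 at 8 h, 2 in A and 1 in B. The intervals of their ratios, 0.776 to 18.9 for CGLD14 and 0.708 to 15.5 for PSBP9, both included equal levels.

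In chlorophyll synthesis 1 of 2 contigs was lower, the Crd1-like contig at 2.21-fold (1.55 to 3.18). The other, GUN4, which binds chlorophyll precursors and stimulates magnesium chelatase, was 5.10-fold higher (1.10 to 45.5) on 12.4 reads at 8 h and 2 at 4 h. In photoprotection and carotenoid or tocopherol synthesis 1 of 2 was lower. That was CHLREDRAFT_317639, a gamma-tocopherol methyltransferase of vitamin E synthesis, at 3.03-fold (1.11 to 9.53) on 15 reads at 4 h and 6 at 8 h. It had 5 reads in A and 0 in B. PTOX2, whose relatives include the plastid terminal oxidase, was 2.42-fold higher (1.35 to 4.58). The single contig matched to electron transport, CCB3, which takes part in assembly of the cytochrome b6f complex, had a ratio of 2.06-fold higher, with an interval that included equal levels (0.756 to 6.49). CCB3 was also counted among the 9 contigs of photosystem cores and assembly. All 3 antenna contigs were lower, but a list of this size, made of contigs chosen by the authors for a difference and with 2 from one locus, was given no test.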

How the data were processed

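Per the labels' protocols, mRNA libraries that keep strand were prepared with TruSeq reagents. Partek is named, without a version, in the submitters' processing notes. What was used for alignment and assembly is not given in the sources used here. Deposited by the authors were 2 lists of contigs with a level per time point that behaves as RPKM, although the file headers name no unit. Depths in reads hold if that scaling is the usual one of RPKM. The columns of levels are headed by words that name neither sample. They were taken as 8 h and 4 h because their ratio is the one the authors' contrast cell calls 8 vs 4. The deposited lists also give that ratio, its natural log, a signed fold score in the lower list, p-values with a step-up adjustment, and the E value of the best hit. The authors' raw totals and maxima are estimated counts, fractional in 73 of 234 contigs.

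Depths were 674129 reads at 8 h and 556037 at 4 h. They came from level, contig length and raw maximum, whose ratio was fixed within 0.01% in 134 of 134 higher and 97 of 100 lower contigs. The remaining reads were solved for 2 further libraries, which was tested on simulated data. The simulated reads were whole, drawn for 4 libraries, with the maximum always at 8 h or 4 h. The number of libraries, fractional reads and a maximum in A, as in the LHCBM contigs, were therefore not tested. The solving for further libraries, the interval for the ratio of folds, and a split into 4 shares were added after the data were seen. Intervals are 95% exact on reads rounded to whole numbers (Clopper-Pearson for shares and folds, Poisson for levels), and PCR duplicates are not excluded, so they cover counting error only. No test between conditions was made. Named contigs were the 3 members, all contigs matched by 5 keyword lists, and the 5 annotated contigs nearest to each LHCBM contig. Placeholder names were not read as symbols. Members and lists were chosen with earlier results of these data known. The software was matplotlib 3.10.9, scipy 1.17.1, pandas 2.3.3 and numpy 2.4.6 under Python 3.11.15.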

Additional observations from a re-analysis of the deposited data

Results flagged for a closer look

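Reads of all 3 contigs appeared outside the described libraries, above the 3 reads that a count of 0 allows. LHCBM4 had 375.1 such reads, LHCBM3 131.3 and ELI3 4.00. For ELI3 these were split as 1 read in library A and 3 in library B, so neither library alone exceeded that limit. What A and B were taken from is not described in the labels.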

How the results depend on the processing

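Across the alternatives tried, LHCBM3, LHCBM4, ELI3 and the summed pair kept their direction, lower at 8 h. Adding 1 or 0.1 RPKM, using reads without library scaling, or rounding shared reads either way left the folds within their counting intervals. Without library scaling LHCBM4 was 1.71-fold lower, under the 2-fold that every listed contig reached. Centring on the median log2 ratio of the listed contigs, 1.14, moved LHCBM3 to 15.03-fold, LHCBM4 to 4.57-fold, ELI3 to 7.11-fold and the sum to 5.77-fold, all by the same factor. That median is set by the larger number of higher than lower contigs in the lists. With the normalized total in place of the raw one, the share outside both time points was 82.2% for LHCBM3 and 82.95% for LHCBM4, because the further libraries were shallower. At a limit of 4-fold, the number of lower contigs was 1 for the antenna and 0 for photosystem cores, for chlorophyll synthesis and for photoprotection. Of all listed contigs 4.7% were at least 4-fold lower. In the other direction, GUN4 of the chlorophyll list was 5.10-fold higher and CGL49 of the photosystem core list 4.15-fold higher. A contig past 4-fold was therefore not particular to the antenna. Other contigs of the higher list also passed that limit, and their share was not counted. With the further libraries as separate shares, the 3 nearest annotated contigs were unchanged for both LHCBM3 and LHCBM4. No paired analysis was possible because each time point had 1 library. Depth limits ELI3 most, and any level in libraries A and B below about 3 reads.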

Other observations

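In summed level, the other contigs of the lower list did not follow the antenna pair in library A. Without the pair, the levels of its other 98 contigs summed to 5666 RPKM at 4 h, 2302 RPKM at 8 h, 2042 RPKM in A and 709.2 RPKM in B. These contigs, like the pair, were listed for a level at least 2-fold lower at 8 h than at 4 h. Their high sum at 4 h therefore partly reflects the listing. Abundant contigs such as the histones also weigh most in the sums. The median level of all 100 lower contigs was 23.5 RPKM at 4 h, 8.76 RPKM at 8 h, 8.79 RPKM in A and 4.37 RPKM in B. By contig, 13 of the 100, the pair among them, were above both time points in A. Histone contigs, the most abundant of the lower list at 4 h, were at most 121.4 RPKM in A, where HFO26 had 82.1 RPKM beside 936.2 RPKM at 4 h in the authors' deposited table. In library A, 18 of the 100 lower and 28 of the 134 higher contigs had no read, and in B 33 and 60.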
